A study of Mus musculus with 4 samples.

Results

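Long noncoding RNAs that host small nucleolar RNAs, and long RNAs that stay in the nucleus, were followed in RNA immunoprecipitated with an antibody against Cpeb4. The set was given by gene symbol and held 10 of the 53379 genes in the deposited table. It comprised the snoRNA host transcripts Gas5, Snhg1, Snhg3, Snhg6, Snhg8, Snhg11 and Snhg12 (7 genes) and the nuclear RNAs Malat1, Neat1 and Miat (3 genes). The lysates came from the V-SVZ (ventricular-subventricular zone), where new neurons are born beside the lateral ventricles, of CD1 mice of genotype WT and age P7/P8. Both groups share this tissue, strain, genotype and age and differ in the antibody: anti-Cpeb4 in 2 libraries and anti-IgG, the control for nonspecific recovery, in 2 libraries. Each of 2 experiments gave 1 library per antibody. The labels do not say whether animals were pooled or whether the experiments used separate animals. The spread behind each p-value is that between these libraries, which may be technical. In the limma fits below, it was drawn largely from all genes together rather than from the gene tested. Libraries of the lysate before precipitation were not analysed here.

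Small nucleolar RNAs (snoRNAs) guide the chemical modification of ribosomal RNA and are processed from introns of host genes. The spliced exons of a noncoding host such as Gas5 leave the nucleus, meet ribosomes and are degraded by nonsense-mediated decay, and Gas5 belongs to the terminal oligopyrimidine class, whose transcripts begin with a C followed by further pyrimidines. Malat1 collects at nuclear speckles, Neat1 is the scaffold of paraspeckles, and Miat (Gomafu) forms separate nuclear domains in neurons. Cpeb4 is an RNA-binding protein that acts on the tails and translation of cytoplasmic mRNAs, so the comparison asks how RNAs of the nucleus and short-lived cytoplasmic RNAs without a long reading frame were distributed between its precipitates and those of IgG.

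The start sites of the RNAs are shown first because the pyrimidine start is the known sequence feature of this host class. RefSeq windows (GRCm38.p6) were matched for 8 of the 10 members, and Snhg6 and Neat1 had no match. Each window runs 5′ to 3′ on the transcribed strand from 10 bases before the annotated start, and its first transcribed base is the 11th. Capitals mark the unbroken run of C and T that includes this base.
Gas5, upstream start (chr1:161034591-161034620, plus strand): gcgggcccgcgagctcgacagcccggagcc
Gas5, downstream start (chr1:161035156-161035185, plus strand): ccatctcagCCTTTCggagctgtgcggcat
Snhg1 (chr19:8723477-8723506, plus strand): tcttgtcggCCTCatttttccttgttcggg
Snhg3 (chr4:132353667-132353696, minus strand): gaccacgcctgacttccgggcgttacttaa
Snhg8 (chr3:123508317-123508346, minus strand): gttcagaagTCTCTTTggctgcgatccgcc
Snhg11 (chr2:158375703-158375732, plus strand): tgcggcactcactcacgcactcagcctgct
Snhg12 (chr4:132308668-132308697, plus strand): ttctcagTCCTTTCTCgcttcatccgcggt
Malat1 (chr19:5802653-5802682, minus strand): ggctctgcgTCaggcattcaggcagcgaga
Miat (chr5:112228929-112228958, minus strand): tcgcagtagCCCCTTTgtgaggcgcgggag
A run of at least 5 pyrimidines across the start was present at 10.1% of the 32851 windows in the table, searched on the transcribed strand alone. Among the 9 windows of the 8 matched members it was present in 4: Snhg12 with a run of 9, Snhg8 and Miat with a run of 7 and Gas5 with a run of 6 at its downstream start. Snhg1 had a run of 4. These matches describe annotated starts, which can be off by some bases, and were not measured in the libraries.

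The hosts carried between 1 and 8 snoRNA genes within their annotated spans. Gas5 (chromosome 1, 161034601 to 161038539) and Snhg1 (chromosome 19, 8723487 to 8726326) each held 8. Snhg12 (chromosome 4, 132308678 to 132311024) held 4, Snhg3 (chromosome 4, 132351933 to 132353686) and Snhg11 (chromosome 2, 158375713 to 158386474) each held 2, and Snhg6 (chromosome 1, 9942025 to 9944118) and Snhg8 (chromosome 3, 123507552 to 123508336) each held 1. Of these 26 carried snoRNAs, 11 were matched by symbol, and together they gave 10 and 5 reads in the Cpeb4 libraries and 7 and 8 in the IgG libraries. The other carried snoRNAs were not analysed here, and the values below are those of the host genes. Malat1 (chromosome 19, 5795690 to 5802672), Neat1 (chromosome 19, 5824708 to 5845480) and Miat (chromosome 5, 112213228 to 112228948) held none.

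The 4 libraries contained 22508104 to 35045195 reads on genes, a number worked back from FPKM, the fragments per kilobase of gene scaled for depth by the authors. V-SVZ markers were present in every library: the summed level of 6 stem cell and astroglial markers was 334 to 474 FPKM and that of 5 neuroblast markers 274 to 367 FPKM. Markers of other cell types were present too, at 206 to 322 FPKM for 6 mature neuron genes, 299 to 466 for 5 oligodendrocyte genes, 89.1 to 116 for 4 microglia genes, 100 to 113 for 4 ependymal and choroid plexus genes and 159 to 252 for 5 endothelial and blood genes, with no marker at 0 in all libraries. With limma, the test explained below, 4 of the 6 stem cell, 3 of the 5 neuroblast, 3 of the 6 neuronal and all 5 oligodendrocyte markers were higher with Cpeb4, while 2 of the 4 ependymal and 3 of the 5 endothelial and blood markers were lower. Scaled to total reads, these higher counts became 1, 2, 2 and 0 and these lower counts 3 and 4. With that scaling 2 stem cell, 2 neuroblast, 3 neuronal, 0 oligodendrocyte and 3 microglia markers were lower, and 1 microglia marker was higher. With the authors' scaling 1 of the 4 microglia markers was higher and 1 lower, and 1 stem cell marker was lower. Of all tested genes, 38.8% were higher and 11.6% lower with the authors' scaling, and 17.6% and 42.3% with total reads. The part of these shifts in the values of the noncoding RNAs was not tested. In such bulk precipitates, a difference in recovery by the antibody, fewer cells of a type and less RNA per cell cannot be told apart.

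The levels spanned a wide range, compared here per kilobase. In IgG precipitates, Malat1 stood at 568 ± 64.7 FPKM (mean ± SD, n = 2 throughout), Snhg11 at 115 ± 1.66 and Gas5 at 31.99 ± 0.792. Miat and Snhg6 followed at 12.3 ± 1.79 and 11.3 ± 2.24 FPKM, and their libraries overlapped. Snhg8, Snhg3, Snhg12 and Snhg1 formed a low group at 3.58 ± 0.918, 3.18 ± 0.194, 2.93 ± 0.437 and 2.58 ± 0.327 FPKM, with neighbours in this order overlapping. Neat1 was lowest at 1.07 ± 0.147 FPKM. In Cpeb4 precipitates the order was the same at the top, with Malat1 at 560 ± 35.0, Snhg11 at 112 ± 11.1 and Gas5 at 17.9 ± 1.02 FPKM, but Snhg6 at 14.9 ± 0.525 stood above Miat at 8.06 ± 0.177.

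**Figure D1:**
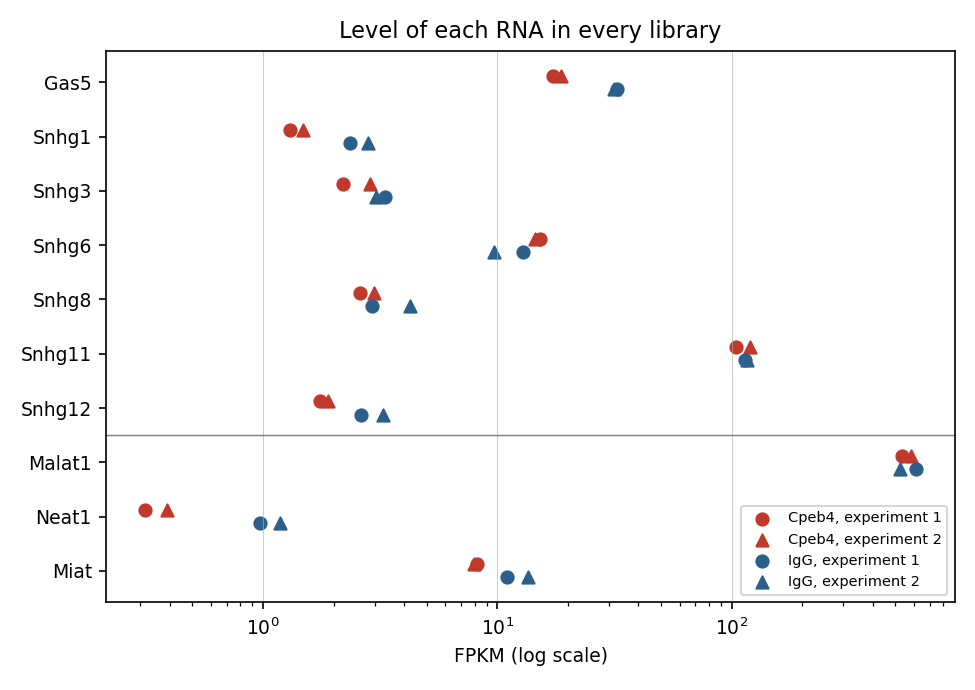
FPKM of each RNA in the 4 libraries on a log axis. Red marks Cpeb4, blue marks IgG, and circles and triangles mark experiments 1 and 2. The blue and red points of Gas5, Snhg1, Snhg3, Snhg12, Neat1 and Miat do not overlap, with Cpeb4 lower, and the gap of Snhg3 is narrow. Those of Snhg6 are apart with Cpeb4 higher, and those of Snhg8, Snhg11 and Malat1 overlap.

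Cpeb4 was compared with IgG by limma on log2(FPKM + 1), with the experiment as a block and Benjamini-Hochberg adjustment over all 15745 genes with at least 1 FPKM in at least 2 libraries. The threshold for a call was an adjusted p of 0.05, and fold changes on this scale understate the change of RNAs with few FPKM. Of the 10 members 9 were tested, and Neat1 fell below the filter. Of the 9, Gas5, Snhg1, Snhg12 and Miat were lower with Cpeb4 (4 genes), Snhg6 was higher (1 gene) and Snhg3, Snhg8, Snhg11 and Malat1 were not called (4 genes). Calls thus fell on 5 of 9 members, against 50.4% of all tested genes, of which 11.6% were lower and 38.8% higher. The log2 fold change was below 0 for 8 of the 9 members and for 35% of all tested genes, and the median was -0.26 for the members and 0.19 for all tested genes. By group, 3 of 7 snoRNA hosts were lower and 1 higher (median -0.26), and 1 of 2 tested nuclear RNAs was lower (median -0.28). In 6 of the 10 members both Cpeb4 libraries lay below both IgG libraries, against 22.7% of all tested genes, and in 1 both lay above, against 53.2%. The 6 include Neat1, which is not among the tested genes behind these shares.

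**Figure D2:**
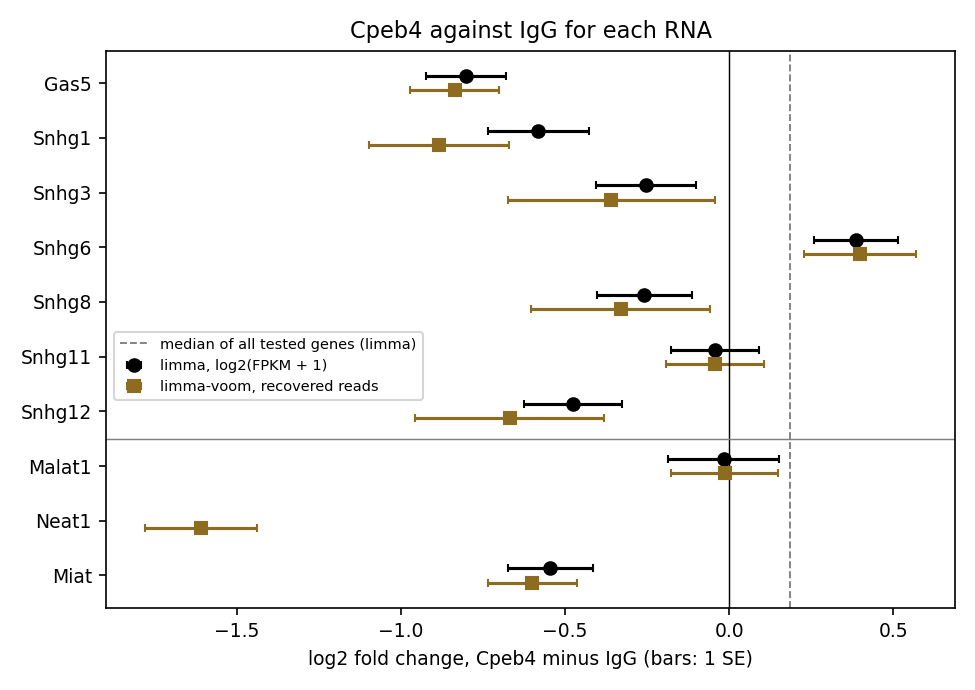
Log2 fold change of Cpeb4 minus IgG with bars of 1 SE, from limma on log2(FPKM + 1) (black circles) and from limma-voom on recovered reads (brown squares). The dashed line is the median of all tested genes, 0.19, and Snhg6 is the RNA to its right. Neat1 has a voom value, -1.61, and no limma value because it did not pass the filter.

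Gas5, the growth-arrest transcript that carries box C/D snoRNAs, had the lowest fold change of the tested members on the log2(FPKM + 1) scale, while Snhg1 had the lower ratio of mean FPKM. In experiments 1 and 2 its level was 17.2 and 18.7 FPKM with Cpeb4, against 32.5 and 31.4 FPKM with IgG. Both Cpeb4 libraries were low, the groups did not overlap, and the gap was many times the spread within either group. The level was 1.78-fold lower with Cpeb4. On the log2 scale Gas5 changed by -0.80 (SE 0.12, limma adjusted p = 4.89e-05), and 3.26% of tested genes had a lower fold change. By limma-voom on recovered reads, where changes at few FPKM are not compressed, 15.3% of 21622 genes had a lower fold change than Gas5. The recovered reads were 1351 and 947 with Cpeb4 and 2415 and 2179 with IgG. After scaling, the ratio of Cpeb4 to IgG was 0.529 in experiment 1 (95% interval 0.495 to 0.566) and 0.594 in experiment 2 (0.55 to 0.641). These intervals come from the exact binomial distribution of the reads and, since reads amplified from low input are not independent molecules, cover counting error only. Among the members called lower, Gas5 alone kept its call in each alternative that was run, with limma adjusted p up to 0.0143. The annotated span of Gas5 overlaps Zbtb37 by 264 bases, and without strand information the reads in that stretch cannot be told apart. Zbtb37 was not called, at a log2 fold change of 0.41 (limma adjusted p = 0.0639).

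Snhg1 and Snhg12, which carry box C/D and mainly box H/ACA snoRNAs respectively, were lower at a much smaller level. Snhg1 measured 1.30 and 1.48 FPKM with Cpeb4 and 2.35 and 2.81 FPKM with IgG. Snhg12 measured 1.75 and 1.89 FPKM with Cpeb4 and 2.62 and 3.24 FPKM with IgG. For both RNAs the Cpeb4 libraries were the low ones in each experiment and the groups did not overlap. On the log2 scale Snhg1 changed by -0.58 (SE 0.15, limma adjusted p = 0.00514), a level 1.86-fold lower. Snhg12 changed by -0.48 (SE 0.15, limma adjusted p = 0.0146), a level 1.61-fold lower. Depth was thin, with 80 to 208 reads per library on Snhg1 and 35 to 82 on Snhg12. Counting intervals of the Snhg12 ratio reached from 0.454 to 0.97 in experiment 1 and from 0.381 to 0.876 in experiment 2. Without IgG replicate 2 both calls were lost (limma adjusted p = 0.0906 for Snhg1 and 0.19 for Snhg12), and without the filter on low values they were lost too (limma adjusted p = 0.0664 and 0.101).

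Snhg6 was the member that was higher with Cpeb4. It is a short host with a single snoRNA, Snord87, and had 15.2 and 14.5 FPKM in the Cpeb4 libraries and 12.8 and 9.67 FPKM in the IgG libraries. The groups did not overlap, but the IgG libraries differed from each other by more than the nearest Cpeb4 and IgG libraries did. On the log2 scale it changed by 0.39 (SE 0.13, limma adjusted p = 0.0193), and the ratio was 1.19 in experiment 1 (95% interval 1.02 to 1.39) and 1.5 in experiment 2 (1.24 to 1.81). The call was lost without IgG replicate 2 (limma adjusted p = 0.459), without the experiment block (limma adjusted p = 0.0521) and without the filter (limma adjusted p = 0.127). With libraries scaled to total reads the value turned to -0.09 (limma adjusted p = 0.588). Snhg6 overlaps Mcmdc2 by 1582 bases of its span, and Mcmdc2 was at 0.869 to 1.24 FPKM in the 4 libraries and was not called (log2 fold change 0.21, limma adjusted p = 0.334).

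Snhg3, Snhg8 and Snhg11 were not called with the authors' scaling, but Snhg3 and Snhg8 were called lower under the 4 other scalings described below and Snhg11 under 3 of them. Snhg3, the host of Snora73a and Snora73b, measured 2.19 and 2.86 FPKM with Cpeb4 and 3.32 and 3.05 FPKM with IgG, which differ by -0.25 on the log2 scale (SE 0.15, limma adjusted p = 0.178). Its groups did not overlap, yet it rested on 33 to 56 reads per library, and without Cpeb4 replicate 2 it was called lower (limma adjusted p = 0.0296). Snhg8, the host of Snora24, measured 2.603 and 2.99 FPKM with Cpeb4 and 2.93 and 4.23 FPKM with IgG, and the groups overlapped (log2 fold change -0.26, SE 0.14, limma adjusted p = 0.152). At 46 to 89 reads per library, and scaled as by the authors, the counting interval of the Snhg8 ratio was 0.618 to 1.28 in experiment 1 and 0.484 to 1.02 in experiment 2. Snhg11, a host transcript abundant in neurons, had ample depth with 13954 to 19408 reads per library. It measured 104 and 120 FPKM with Cpeb4 and 114 and 116 FPKM with IgG, so the IgG libraries lay between the Cpeb4 libraries (log2 fold change -0.04, SE 0.13, limma adjusted p = 0.81).

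Among the nuclear RNAs, Malat1 was the most abundant member and was not called. It measured 535 and 585 FPKM with Cpeb4 and 614 and 522 FPKM with IgG, and the groups overlapped. Its ratio of Cpeb4 to IgG was 0.873 in experiment 1 and 1.12 in experiment 2, so the experiments differed in direction although 81058 or more reads lay behind each value. On the log2 scale the antibodies differed by -0.02 (SE 0.17, limma adjusted p = 0.947). Malat1 ranked between 18th and 30th of all genes in the 4 libraries and took 0.327% and 0.331% of the reads with Cpeb4 and 0.516% and 0.439% with IgG. On that share of reads the groups did not overlap, and with libraries scaled to total reads Malat1 was called lower (log2 fold change -0.53, limma adjusted p = 0.00353). The 3′ end of Malat1 is cut rather than polyadenylated and carries a genome-encoded A-rich tract, so its level here also depends on how well the poly(A)-primed cDNA kit starts from that tract.

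Miat was lower with Cpeb4. It measured 8.18 and 7.93 FPKM in the Cpeb4 libraries and 11.0 and 13.5 FPKM in the IgG libraries, with 1443 to 3366 reads per library. The Cpeb4 libraries were close to each other and below both IgG libraries. The level was 1.52-fold lower, a log2 change of -0.54 (SE 0.13, limma adjusted p = 0.00231). The ratio was 0.744 in experiment 1 (95% interval 0.704 to 0.786) and 0.586 in experiment 2 (0.55 to 0.623), so the experiments differed by more than counting error while sharing the direction. The call was lost without IgG replicate 2 (limma adjusted p = 0.12) and without the filter (limma adjusted p = 0.0615).

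Neat1 showed the largest ratio between antibodies of the 10 RNAs, at the lowest level. It measured 0.314 and 0.390 FPKM with Cpeb4 and 0.970 and 1.18 FPKM with IgG, so 1 library reached the minimum of 1 FPKM and the RNA was left out of the comparison above. The groups did not overlap, and the level was 3.05-fold lower with Cpeb4. The low FPKM goes with a long gene model: the FPKM implied about 21 kb of exon, which spans the short polyadenylated isoform and the long paraspeckle isoform, and 161 to 664 reads per library lay behind these values. The ratio of Cpeb4 to IgG was 0.323 in experiment 1 (95% interval 0.274 to 0.38) and 0.331 in experiment 2 (0.277 to 0.394). With no filter, limma on log2(FPKM + 1) gave -0.62 (SE 0.17) and did not call it with the authors' scaling (limma adjusted p = 0.0937), nor with trimmed mean of M-values (0.0712) or the upper quartile (0.0791), whereas it was called lower with median centring (-0.92, limma adjusted p = 0.00551) and with total reads (-0.82, limma adjusted p = 0.0495); the pseudocount compresses a change between values near and below 1. Limma-voom on the recovered reads, a test chosen after seeing the data, gave -1.61 (SE 0.17, adjusted p = 9.59e-20), and 6.66% of its 21622 genes had a lower fold change. By that test 5 of the 10 members were lower (Gas5, Snhg1, Snhg12, Neat1 and Miat) and Snhg6 was higher, against 17.8% of all genes lower and 30.7% higher.

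Reads on silent genes also differed between the antibodies and are given beside the low values. Over 1961 olfactory and vomeronasal receptor genes, which brain tissue is not expected to transcribe, the mean level was 0.0234 and 0.0321 FPKM in the Cpeb4 libraries and 0.109 and 0.107 FPKM in the IgG libraries. This density equals 7.46% and 8.22% of the Neat1 level with Cpeb4 and 11.2% and 9.11% with IgG. With it subtracted, Neat1 was 2.98-fold lower with Cpeb4, at 0.290 and 0.358 against 0.862 and 1.07 FPKM. For Snhg1 the density was at most 4.62% of the level in any library, and the ratio after subtraction was 1.82-fold. With this subtraction, added after seeing the data, the same counts of 4 lower and 1 higher member were obtained. Of all 15745 tested genes, 1689 were then lower and 6342 higher.

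In the authors' deposited table, which holds their own comparison, Neat1 had a log2 fold change of -1.62 (SE 0.23, adjusted p = 5.16e-11). The authors' deposited table gave -0.84 for Gas5 (adjusted p = 4.23e-06), -0.90 for Snhg1 (adjusted p = 0.0271) and -0.61 for Miat (adjusted p = 0.00156). The authors' deposited table thus has 4 of the members lower and 0 higher, where 4.93% of its 22709 genes with an adjusted p were lower and 21.7% higher. Snhg12 at -0.69 (adjusted p = 0.329) and Snhg6 at 0.41 (adjusted p = 0.27) did not pass in the authors' deposited table. These values come from the same libraries and add no replication.

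The scaling of the libraries moved all members together. Over all tested genes the median was 0.19 (log2) with the authors' scaling, -0.04 with trimmed mean of M-values, -0.11 with centring on the median level, -0.18 with the upper quartile and -0.24 with total reads. Gas5 went from -0.80 to -1.29 between the first and the last, Miat from -0.54 to -1.01 and Snhg1 from -0.58 to -0.92, and these RNAs and Snhg12 were called lower under all 5 scalings. Snhg3 went from -0.25 to -0.63 and Snhg8 from -0.26 to -0.65, and the adjusted p by limma under the 4 scalings other than the authors' was 0.000160 to 0.0158 for Snhg3 and 8.93e-05 to 0.012 for Snhg8. Snhg11 went from -0.04 to -0.55 and Malat1 from -0.02 to -0.53, and both were called lower with the upper quartile and total reads, Snhg11 also with median centring (limma adjusted p = 0.0391). With total reads 8 of the 9 tested members were lower and 0 higher, where 42.3% of all tested genes were lower and 17.6% higher. With the upper quartile 8 were lower (37.1% of all tested genes) and 0 higher (19.7%), with median centring 7 lower (30.8%) and 0 higher (22.9%), and with trimmed mean of M-values 6 lower (25.4%) and 0 higher (25.6%). Limma-voom on total reads gave 9 of 10 lower (47.4% of its genes) and 0 higher (13.7%). Among the limma fits under these 5 scalings, Snhg6 was called higher with the authors' scaling alone. With no filter on low values, 1 member, Gas5, was lower (1.87% of 46911 genes) and 0 were higher (8.35%).

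**Figure D3:**
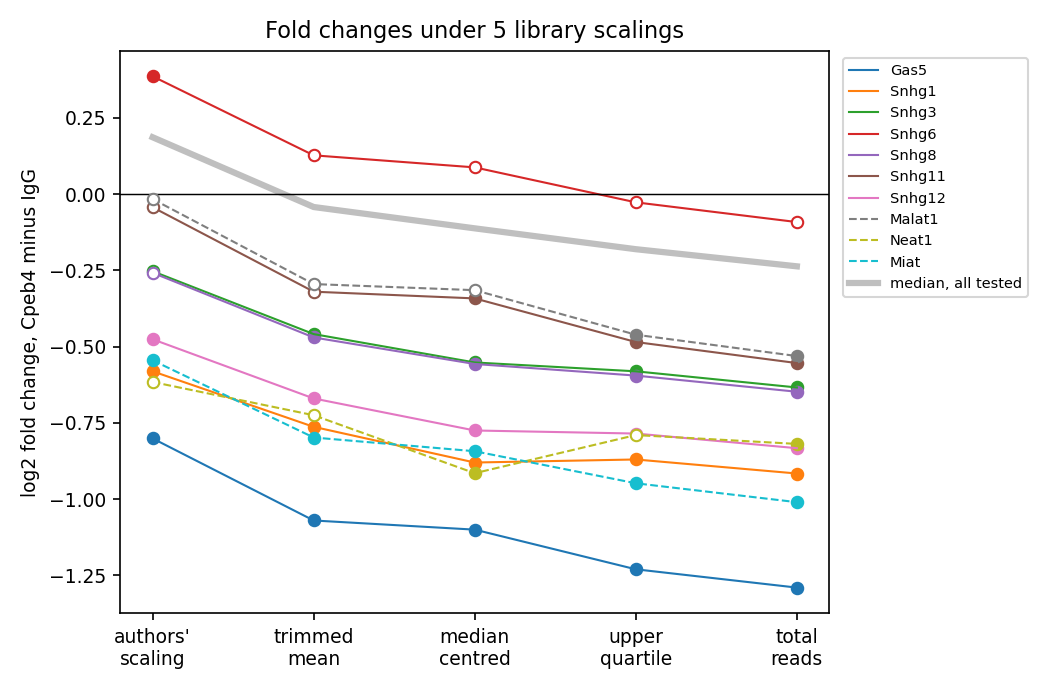
Log2 fold change of Cpeb4 minus IgG for each RNA under 5 library scalings, with filled points called at an adjusted p under 0.05 and open points not called; Neat1 is shown from the fit with no filter. The thick grey line is the median of all tested genes, which runs from 0.19 to -0.24. Every RNA lies lower with total reads than with the authors' scaling, Gas5 stays lowest, and Snhg6 stays above it.

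Levels relative to Malat1 in the same library do not depend on the scaling. The log2 ratio of Gas5 to Malat1 was -4.96 and -4.97 in the Cpeb4 libraries and -4.24 and -4.05 in the IgG libraries, a change of -0.72 in experiment 1 and -0.92 in experiment 2. The ratio of Neat1 to Malat1 changed by -1.43 and -1.76, that of Snhg1 by -0.65 and -1.09, that of Snhg12 by -0.39 and -0.94 and that of Miat by -0.23 and -0.94. Snhg6 moved up against Malat1 by 0.45 and 0.42. Snhg3 changed by -0.41 and -0.25, while Snhg8 (0.03 and -0.67) and Snhg11 (0.07 and -0.12) changed in opposite directions in the 2 experiments. These changes rest on 2 experiments and carry no test.

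**Figure D4:**
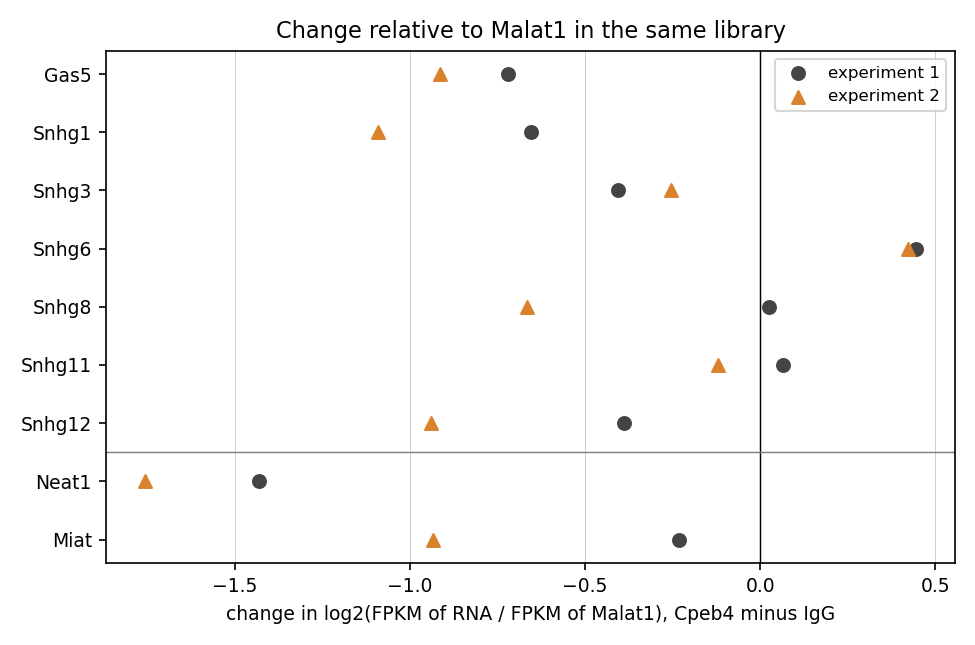
Change in the log2 ratio of each RNA to Malat1, Cpeb4 minus IgG, in experiment 1 (grey circles) and experiment 2 (orange triangles). Neat1 lies farthest left at -1.43 and -1.76, Snhg6 lies right of 0 in both experiments, and Snhg8 and Snhg11 lie on both sides of 0.

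The snoRNA hosts and the nuclear RNAs were also compared as groups within each library. The median log2(FPKM + 1) of the 7 hosts minus that of the 3 nuclear RNAs was -1.35 and -1.16 in the Cpeb4 libraries and -1.47 and -1.48 in the IgG libraries. The change was 0.12 in experiment 1 and 0.31 in experiment 2, a mean of 0.22 ± 0.13 (SD, n = 2). With means in place of medians it was 0.10. In every library the median of the nuclear RNAs was the value of Miat. The host median was Snhg8 in both Cpeb4 libraries and in IgG of experiment 2, and Snhg3 in IgG of experiment 1. Each median thus rests on a single gene, with 46 to 89 reads for Snhg8 and 56 for Snhg3 in that IgG library. No test was run, because an exact permutation of 2 libraries against 2 cannot reach the threshold. With limma-voom, the log2 fold changes ran from -0.88 for Snhg1 to 0.40 for Snhg6 among the hosts and from -1.61 for Neat1 to -0.01 for Malat1 among the nuclear RNAs.

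Other noncoding snoRNA hosts also went both ways. Of the 12 listed genes analysed, 10 were tested, of which 4 were lower, 2 higher and 4 not called, where 11.6% of all tested genes were lower and 38.8% higher. Of the 4 lower, 1, Snhg9, passed the filter through the IgG libraries alone, which fixes its direction. It is given as values only, at 0.534 and 0.551 FPKM from 3 and 2 reads with Cpeb4 and 3.20 and 2.42 FPKM from 17 and 12 reads with IgG. Snhg20, Zfas1 and Snhg5 were lower at -0.92, -0.66 and -0.56 (limma adjusted p = 2.87e-05, 0.00134 and 0.00155). Snhg14, the imprinted transcript that runs antisense to Ube3a, was higher at 0.79 (SE 0.17, limma adjusted p = 0.00109), but its Cpeb4 libraries differed widely, at 27.5 and 48.4 FPKM against 21.9 and 19.6 FPKM, and reads of antisense genes cannot be assigned without strand. Snhg4 was higher at 0.34 (limma adjusted p = 0.0444) and turned to -0.09 with total reads, under which 7 of the 10 were lower and 0 higher (42.3% and 17.6% of all tested genes). The 7 include Snhg9, whose direction the filter fixes.

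Other long RNAs, listed here as nuclear, also held calls in both directions, and where they lie in the cell was not measured. Of 10 tested, 4 were lower, 3 higher and 3 not called, against the same 11.6% and 38.8% of all tested genes, and 3 of the 4 lower passed the filter through IgG alone. Tug1 was higher at 67.2 and 88.0 FPKM with Cpeb4 against 23.8 and 26.2 FPKM with IgG, a log2 change of 1.58 (SE 0.13, limma adjusted p = 1.04e-07), and was higher with total reads too (1.08). Ftx, from the X-inactivation centre, and the imprinted Peg13 were higher at 0.59 and 0.40 (limma adjusted p = 0.0014 and 0.0118), and Peg13 turned to -0.09 with total reads. Xist, the RNA that coats the inactive X chromosome, was lower at -0.69 (SE 0.13, limma adjusted p = 0.000392), at 3.87 ± 0.641 against 6.82 ± 0.484 FPKM. The 3 that passed through IgG alone are given as values only, since the filter fixes their direction. Mirg was at 0.898 ± 0.0204 FPKM with Cpeb4 and 1.88 ± 0.0835 with IgG. Kcnq1ot1 and Airn, very long antisense RNAs, were at 0.443 ± 0.051 against 1.12 ± 0.0784 FPKM and 0.488 ± 0.0871 against 1.15 ± 0.037 FPKM. With total reads 7 of the 10 were lower and 1, Tug1, was higher, against 42.3% and 17.6% of all tested genes. The 7 include Mirg, Kcnq1ot1 and Airn, whose direction the filter fixes.

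The mRNAs that host snoRNAs or encode their partners were counted against the same shares, 38.8% higher and 11.6% lower. Of 25 protein-coding hosts, 5 were higher, 1 lower and 19 not called (median 0.07, against 0.19 for all tested genes). Wdr43, a ribosome biogenesis factor, was higher at 1.34 (SE 0.12, limma adjusted p = 3.26e-07), the elongation factor Eef1b2 at 0.72, the helicase Eif4a2 at 0.44 and Rpl5 at 0.39, and Rps12 was lower at -0.40 (limma adjusted p = 0.0139). Of 15 snoRNP protein and assembly genes, 3 were higher, 1 lower and 11 not called (median 0.16). The assembly factor Naf1, the box C/D core protein Nop58 and the pseudouridine synthase Dkc1 were higher at 0.83, 0.53 and 0.43, and Nop10, a small box H/ACA protein, was lower at -0.64 (limma adjusted p = 0.000348). With total reads Wdr43 and Naf1 were the only higher ones in these lists, at 0.85 and 0.47, 16 and 9 genes were lower (17.6% of all tested genes were higher and 42.3% lower), and Eif4a2, Rpl5 and Dkc1 turned to -0.07, -0.11 and -0.05.

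Of 12 genes for paraspeckle and speckle proteins, 5 were higher, 2 lower and 5 not called (median 0.20), where 38.8% of all tested genes were higher and 11.6% lower. The splicing factor Srsf1 was higher at 1.53 (SE 0.14, limma adjusted p = 3.52e-07), and the paraspeckle protein Sfpq, Srsf2 and Hnrnpk at 0.61, 0.66 and 0.63. The speckle scaffold Srrm2 was lower at -0.74 and Nono, the partner of Sfpq, at -0.41 (limma adjusted p = 0.000183 and 0.0112). The mRNAs of Sfpq and Nono thus went in opposite directions with the authors' scaling, while Neat1, the RNA they bind, was lower by limma-voom. With total reads Sfpq stood at 0.11, Srsf1 was the only higher gene of the list (1.02) and 6 were lower, against 17.6% and 42.3% of all tested genes.

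**Figure D5:**
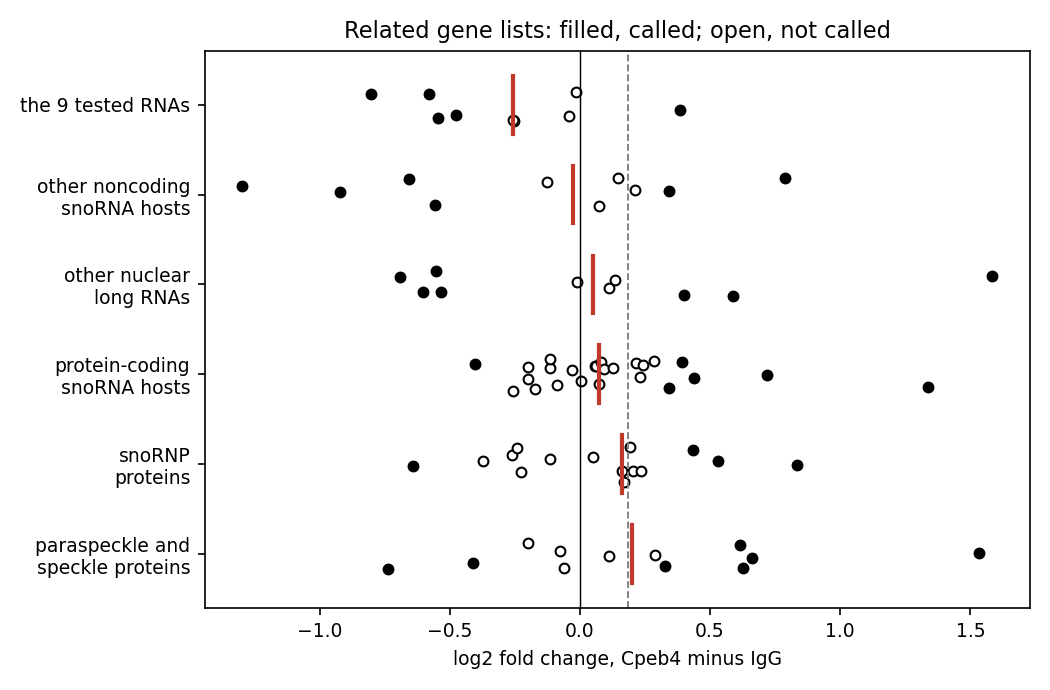
Log2 fold change of Cpeb4 minus IgG for the 9 tested RNAs and 5 related gene lists, 1 point per gene, filled where called and open where not; red bars are list medians and the dashed line is the median of all tested genes, 0.19. The noncoding lists hold called genes on both sides of 0, with Tug1 farthest right at 1.58; the leftmost point, Snhg9, passed the filter through the IgG libraries alone.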

How the data were processed

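RNA immunoprecipitated with anti-Cpeb4 or control IgG was sequenced in 4 libraries. Per the labels' protocols, the kits were MAGNA RIP for the precipitation, SMART-Seq v4 Low Input for cDNA and Nextera XT for libraries. The submitters' processing notes name STAR 2.6.0c, HTSeq 0.6.1p2, DESeq2 1.26.0 and mm10, with no role or setting. Per the file headers, the authors deposited FPKM per library and a comparison holding a mean level (a signal, reads divided by size factors), a log2 fold change with its SE, a test score and p-values with adjusted p-values. Steps of the FPKM joined to the deposited mean level returned reads, of which 100% were whole to within 0.01.

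Limma 3.58.1 in R 4.3.3 was run on log2(FPKM + 1) of genes reaching 1 FPKM in 2 or more libraries. The two-sided test of antibody used a trended prior and the experiment as block, which left 1 residual degree of freedom besides 14.6 from the prior. The experiment numbers come from the labels; deviations of same-numbered libraries correlated at 0.00238 across genes. Limma-voom used genes with at least 10 reads in at least 2 libraries. Scripts were tested on simulated data. Members and gene lists were chosen with earlier results of these data known. From each list, up to 4 called genes per direction with the smallest adjusted p are named. Alternatives covered scaling, filter, pseudocount, block, test and each library left out. Groups and pairs were taken from sample titles. Gene positions are from RefSeq GRCm38.p6.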

Additional observations from a re-analysis of the deposited data

How the results depend on the processing

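The count of members called lower was 4 and that of members called higher 1. With total reads, the upper quartile and centring on the median these became 8, 8 and 7 lower and 0 higher, and 0 were higher with trimmed mean of M-values as well. Genes called higher numbered 2766, 3101, 4035 and 3607 with total reads, upper quartile, trimmed mean and median centring, and genes called lower 6659, 5841, 3996 and 4857, against 6106 and 1822. Without the replicate block the member count was 4 lower and 0 higher, and of all 15745 tested genes 1714 were lower and 6007 higher. With no filter on low values 1 member was lower and 0 higher (3915 genes higher, 875 lower). Limma-voom on recovered reads called 3852 genes lower, and scaled to total reads 2963 higher and 10251 lower, with 9 members lower and 0 higher. Leaving out each library in turn, without the block, gave 1 to 5 members lower and 0 to 1 higher, with 3977 to 6534 genes higher and 867 to 2497 lower; the lone library of an antibody is then assumed to vary like the pair. The lowest of these counts came without IgG replicate 2, and without IgG replicate 1 the genes lower numbered 942. The hosts-minus-nuclear change ranged from 0.125 to 0.311 with libraries left out.

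Snhg6 changed sign with total reads (-0.0918), the upper quartile (-0.0271) and limma-voom on total reads (-0.11); the cause was not tested. The count-model tests that had been planned were left out, since the files hold FPKM, and limma-voom was run on the recovered reads instead. Snhg3, Snhg8 and Snhg12 had at most 89 reads per library, which limits the differences that can be seen.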

Other observations

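Small nucleolar RNAs with a gene of their own in the table were mostly silent in these poly(A)-primed libraries. Of 149 genes whose symbol starts with Snord, Snora or Scarna, 84 had no read in any library and 24 were tested, of which 6 were lower, 3 higher and 15 not called with Cpeb4 (median log2 fold change -0.09, against 0.19 for all tested genes, of which 11.6% were lower and 38.8% higher). Snord104 was lower at -0.98 (limma adjusted p = 0.000367), Snord8 at -0.93 (limma adjusted p = 3.52e-05), Snora31 at -0.65 (limma adjusted p = 0.00448) and Snord98 at -0.53 (limma adjusted p = 0.0118). Snord91a was higher at 0.89 (limma adjusted p = 1.54e-05) and Snord53 at 0.71 (limma adjusted p = 0.0057). The other higher one, Snord70, passed the filter through the Cpeb4 libraries alone, which fixes its direction. Reads of such short genes may be exons or unspliced introns of their hosts, which was not tested. With total reads 14 were lower and 2 higher, against 42.3% and 17.6% of all tested genes.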
